A study of Mus musculus with 10 samples.

Results

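The collagen genes were examined in RNAseq of the cortical hem (CH), a signaling center at the medial edge of the embryonic telencephalon. They are the 44 genes, of 52227 in the count table, whose symbol has the form of the letters Col, a type number, the letter a and a chain number. There were 11 genes of fibrillar collagens, 6 of basement membrane type IV, 9 of fibril-associated collagens with interrupted triple helices (FACIT) and 18 of other types. Of the 44, 41 had at least 10 counts in at least 3 libraries and were tested among 21664 genes. *Col5a3*, *Col6a4* and *Col6a5* were not tested, and their highest values in any library were 24, 22 and 5 counts.

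Each library held the CH of 1 mouse embryo, cut from its sections by laser capture at e13.5, and there were 5 wild-type and 5 *Lmx1a-/-* embryos. The mutants were homozygous for *drJ*, an allele of *Lmx1a* that acts as a null. All animals had a mixed C57Bl6, FVB and CD1 background. The function of *Lmx1a*, which encodes a LIM homeodomain transcription factor, was lost in the whole embryo, so the CH and the tissue around it carried the same genotype. *Lmx1a* transcript was between 45.6 and 90.8 CPM (normalized read counts per unit of library size, the CPM of edgeR) in wild-type and between 89.9 and 145 CPM in *Lmx1a-/-* libraries, and its level does not check the labels because a point mutation leaves the transcript in place.

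A collagen is a trimer of chains wound into a triple helix, in which each chain is a repeat of triplets that open with glycine, since no larger side chain fits into the core. Fibrillar collagens assemble into the fibrils of mesenchyme and cartilage, type IV collagens form the network of basement membranes, and FACIT collagens lie on the surface of fibrils. In the embryonic brain, collagens are best known from the pial and vascular basement membranes and from the meninges, to which the endfeet of radial glia and the Cajal-Retzius (CR) cells of the CH are apposed.

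The glycine of each triplet can be read from the coding sequence, since glycine codons begin with GG. The exons below, each of 54 bases, come from *Col2a1*, the collagen with the highest level, and from *Col11a1*, *Col4a1* and *Col9a3*. The last of these are among the collagens that differed between genotypes in the test described below. The exons are shown because this exon length is the unit of the helix-coding part of fibrillar genes. Capitals mark the glycine codon that opens each triplet. The sequences are those of GRCm38 with the GENCODE M21 annotation, 5′ to 3′ on the coding strand.
*Col11a1*, coding exon 15, chr3:114108281-114108334, plus strand: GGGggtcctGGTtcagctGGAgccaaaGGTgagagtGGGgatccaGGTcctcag
*Col2a1*, coding exon 10, chr15:97996489-97996542, minus strand: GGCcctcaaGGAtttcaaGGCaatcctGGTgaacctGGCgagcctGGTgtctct
*Col4a1*, coding exon 7, chr8:11245211-11245264, minus strand: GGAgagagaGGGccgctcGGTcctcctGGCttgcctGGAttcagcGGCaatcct
*Col9a3*, coding exon 13, chr2:180605727-180605780, plus strand: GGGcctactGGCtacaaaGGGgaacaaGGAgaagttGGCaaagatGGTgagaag

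Across whole coding sequences the classes differed in how far this repeat ran without a break. The longest run of triplets was between 216 and 344 (median 338) in the 11 fibrillar genes, with at most 2 breaks between runs of at least 5 triplets. In the 6 type IV genes the longest run was between 39 and 66 triplets, and the repeat was broken between 21 and 26 times. The chains of type IX, *Col9a1*, *Col9a2* and *Col9a3*, each had a longest run of 113 triplets. Exons of 54 bases numbered between 21 and 33 in the fibrillar genes and between 1 and 3 in the type IV genes.

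Library totals were between 19145952 and 36462780 counts, and collagen genes took between 0.118% and 0.207% of them in wild-type and between 0.102% and 0.164% in *Lmx1a-/-* libraries. The sexes were spread unevenly over the genotypes. *Xist*, transcribed from the inactive X chromosome, reached 4399 to 5169 CPM in wild-type embryos 2 to 5. Wild-type embryo 1 had 1.01 CPM of it, and no mutant had more than 1.15 CPM. Transcripts of the Y chromosome, such as *Uty*, were found in wild-type embryo 1 and in the mutants, so genotype and sex can be separated only through wild-type embryo 1. For the collagens past the threshold and those described by their value in every embryo, except *Col7a1*, *Col17a1* and *Col19a1*, a fit of wild-type embryo 1 against the 5 mutants is therefore given as well, in which the lone embryo is assumed to vary like the mutants. For genes other than collagens that fit is not given, so their differences between genotypes are not separated from sex. In a library of captured tissue, fewer cells of a type and less RNA per cell cannot be told apart.

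To set the collagens beside each other, levels were divided by the length of the gene's exons. In wild-type CH, *Col2a1*, which encodes the fibrillar chain of cartilage and is also transcribed in the embryonic neuroepithelium, had the highest level, 35.8 ± 5.64 CPM per kb (SD, here and below over 5 embryos of a genotype). The type I chain *Col1a1* followed at 22.2 ± 12.4 CPM per kb, then the type III chain *Col3a1* at 14.6 ± 6.57, the type IV chain *Col4a1* at 12.3 ± 3.4 and the second type I chain *Col1a2* at 11.7 ± 5.58 CPM per kb. The ranges of mean ± SD overlapped between neighbours all the way from *Col2a1* to *Col1a2*, but that of *Col2a1* lay above those of *Col3a1*, *Col4a1* and *Col1a2*. *Col11a1* ranked 11 of the 41 at 6.04 ± 0.723 CPM per kb, and *Col9a3* ranked 27 at 0.723 ± 0.124 CPM per kb. The lowest of the 41 was the type IV chain *Col4a3*, at 0.0221 ± 0.0186 CPM per kb.

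**Figure D1:**
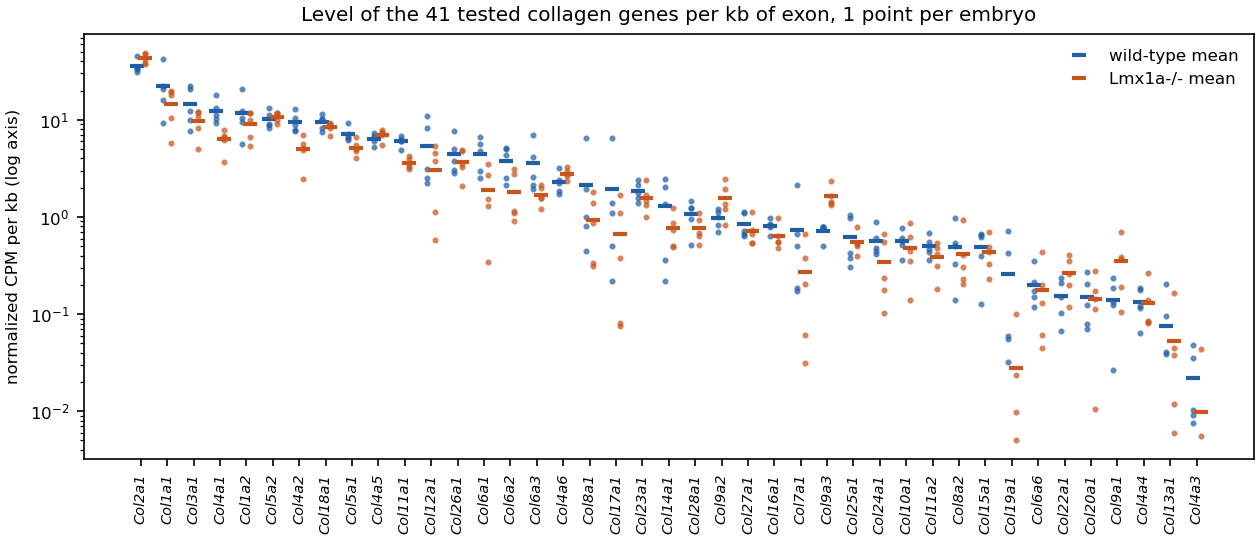
Normalized CPM per kb of exon on a log axis for the 41 tested collagen genes, ordered by the wild-type mean, with 1 point per embryo and a dash for the mean of each genotype (blue, wild-type; orange, *Lmx1a-/-*; libraries at 0 have no point). Levels run from *Col2a1*, at 35.8 CPM per kb in wild-type, down to *Col4a3*, at 0.0221 CPM per kb.

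The comparison of genotypes asks which collagens changed in the CH without functional Lmx1a. At a false discovery rate (FDR) under 0.1 by edgeR's quasi-likelihood test, *Col11a1*, *Col4a1* and *Col4a2* fell and *Col9a3* rose, and 37 of the 41 passed in neither direction. The 3 that fell are 7.32% of the 41, and 2.29% of all 21664 tested genes fell. The 1 that rose is 2.44% of the 41, near the 1.72% of all tested genes that rose, and 4.02% of all tested genes passed in either direction. The same 4 genes were the ones whose genotypes did not overlap. Every mutant library was below every wild-type library for 3 of 41 collagens and for 2.27% of all tested genes, and above for 1 of 41 and for 2.17%.

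Over all tested collagens, those that passed included, lower means were more frequent than higher ones. Of the 41, 33 (80.5%) had a lower fitted mean in *Lmx1a-/-*, against 50.6% of all tested genes, and their median log2 fold change was -0.37, against -0.00 for all tested genes. At an unadjusted p under 0.05, 8 of 41 were lower and 4 higher, where 8.7% of all tested genes were lower and 7.66% higher. Summed over the 44 genes, wild-type libraries held 1612 ± 312 CPM of collagen transcripts (between 1199 and 2012) and *Lmx1a-/-* libraries 1307 ± 208 CPM (between 1030 and 1532), so the summed levels overlapped.

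**Figure D2:**
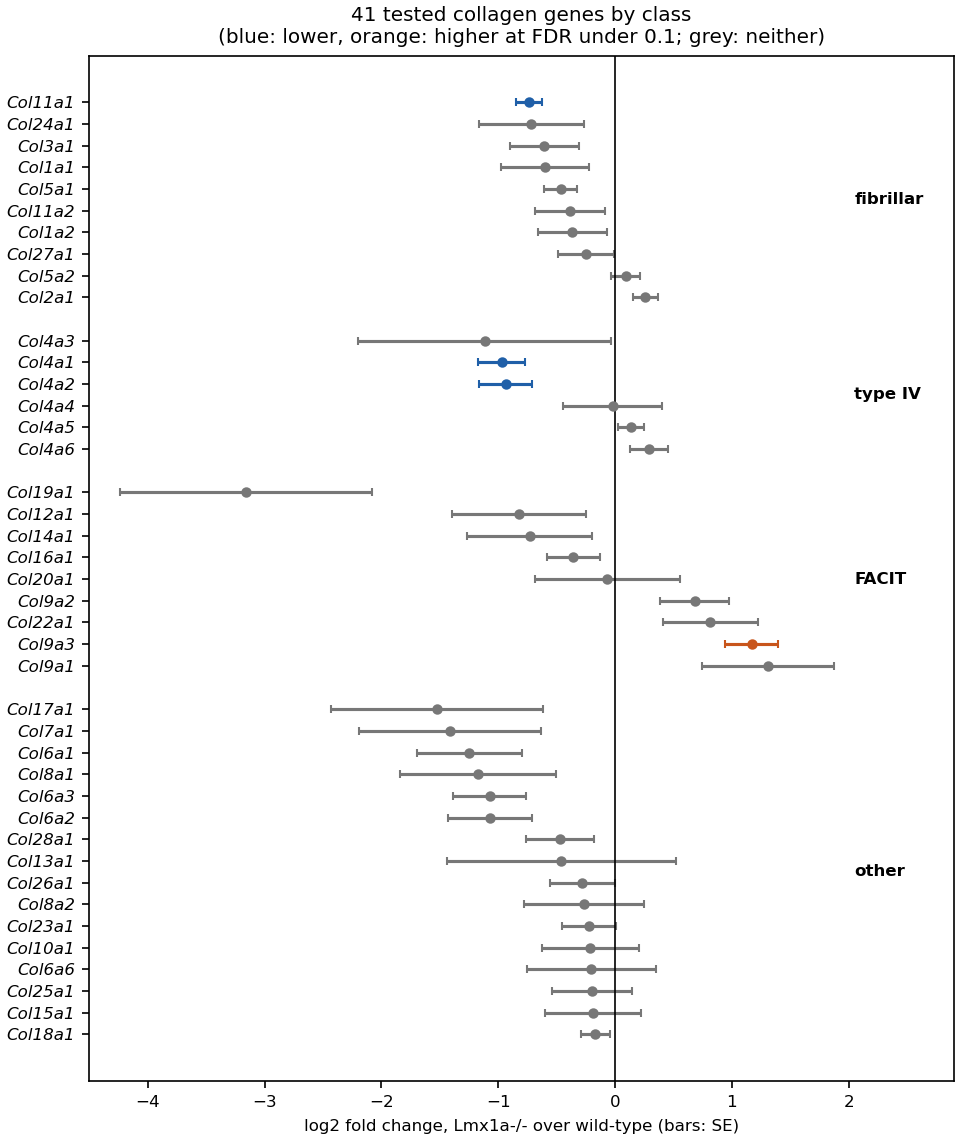
Log2 fold change of *Lmx1a-/-* over wild-type with its SE for each of the 41 tested collagen genes, grouped by class (blue, lower at FDR under 0.1; orange, higher; grey, neither). Points lie left of 0 for 8 of 10 fibrillar, 4 of 6 type IV, 5 of 9 FACIT and all 16 other genes.

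Among fibrillar collagens, 1 of 10 tested genes fell and none rose, with 8 of 10 lower in mean and a median log2 fold change of -0.43. *Col11a1* (ENSMUSG00000027966, chr3:114030540-114220718), a chain of type XI collagen, which forms the core of thin fibrils and limits their width, was at 77.9, 81.1, 86.4, 61.7 and 77.9 CPM in wild-type embryos 1 to 5. In *Lmx1a-/-* embryos 1 to 5 it was at 40.1, 42, 43.9, 54.5 and 50.5 CPM. The highest mutant library was thus below the lowest wild-type library, and wild-type embryo 1 lay in the middle of its group. *Col11a1* fell from 77 ± 9.22 to 46.2 ± 6.08 CPM (edgeR FDR = 0.00367, log2 fold change -0.74, SE 0.11), and it ranked 81 by p among all tested genes. Its log2 fold change was -0.76 in the fit of wild-type embryo 1 against the mutants, where its FDR was 0.155, and -0.74 with *Xist* as a covariate, where its FDR was 0.230.

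*Col2a1*, whose product is also used as a chain of type XI collagen, did not pass the threshold. It was at 312, 310, 286, 323 and 420 CPM in wild-type and at 435, 450, 350, 356 and 389 CPM in *Lmx1a-/-* embryos. Only wild-type embryo 5 reached into the range of the mutants, and the log2 fold change came to 0.26 (edgeR FDR = 0.243, SE 0.11). Without wild-type embryo 5 it was 0.36, and the FDR was 0.0654. In the fit of wild-type embryo 1 against the mutants it was 0.34 (FDR = 0.565).

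The type V chains, which nucleate fibrils, had unlike values. *Col5a1* went from 60.7 ± 10.5 to 43.9 ± 8.21 CPM (edgeR FDR = 0.112, log2 fold change -0.47, SE 0.14), just outside the threshold. Its log2 fold change was -0.25 (FDR = 0.783) in the fit of wild-type embryo 1, which was at 52 CPM, against the mutants. *Col5a2* went from 97 ± 19.3 to 103 ± 11.6 CPM (0.09, FDR = 0.778). The chains of types I and III, the main collagens of meninges and skin, were lower in mean but varied widely among embryos of a genotype. *Col1a1* was between 61.4 and 278 CPM in wild-type and between 37.7 and 131 CPM in *Lmx1a-/-* libraries (log2 fold change -0.60, SE 0.37, FDR = 0.464). *Col3a1* was between 75.3 and 220 CPM and between 48.9 and 118 CPM (-0.60, SE 0.30, FDR = 0.332), and *Col1a2* between 70.3 and 257 CPM and between 67 and 147 CPM (-0.37, SE 0.30, FDR = 0.586). All 3 were highest in wild-type embryo 3. The remaining fibrillar genes, *Col11a2*, *Col24a1* and *Col27a1*, reached at most 4.69, 6.82 and 14.7 CPM in a library and had log2 fold changes of -0.39, -0.72 and -0.25, none past the threshold.

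Markers of meninges and mesenchyme were examined beside the fibrillar genes, since these cells make fibrillar collagens and adjoin the CH. Of 17 such markers 4 fell, *Pdgfra*, *Lum*, *Dcn* and *Bgn*, and none rose, where 2.29% of all tested genes fell. Only 10 of the 17 were lower in mean, with a median log2 fold change of -0.05. The summed level of the 17 was between 512 and 615 CPM in wild-type and between 471 and 593 CPM in *Lmx1a-/-* libraries, so it overlapped. The sum did not follow the mean log2 CPM of the list. Wild-type embryo 3 had the lowest wild-type sum, 512 CPM, but the highest mean of all libraries, 3.51. The overlap of the sum therefore does not show that libraries held alike amounts of meninges. The transcription factors *Foxc1* (8.56 ± 2.73 against 8.85 ± 4.28 CPM) and *Twist1* (24.7 ± 19.3 against 9.76 ± 4.93 CPM) did not pass. With the mean level of this list as a covariate, *Col11a1* passed (log2 fold change -0.75, FDR = 0.00866), as did *Col4a1* (-0.89, FDR = 0.058) and *Col9a3* (1.23, FDR = 0.0189), and *Col4a2* did not (-0.84, FDR = 0.1003).

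**Figure D3:**
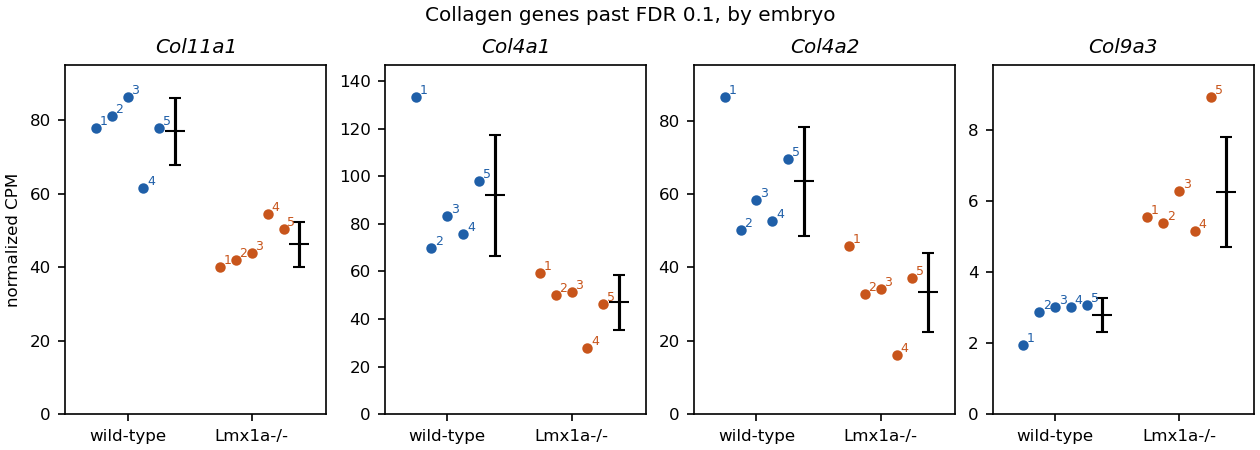
Normalized CPM of the 4 collagen genes past FDR 0.1, with 1 point per embryo, labelled by embryo number, and the mean ± SD beside each genotype (blue, wild-type; orange, *Lmx1a-/-*; axes start at 0). In every panel the 5 mutant points lie wholly below the wild-type points, or wholly above them for *Col9a3*.

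The type IV chains are encoded by pairs of genes that lie head to head, and the chains of a pair are found together in basement membranes. Of the 6 genes, *Col4a1* and *Col4a2* fell and none rose, and the median log2 fold change was -0.48. *Col4a1* (ENSMUSG00000031502, chr8:11198423-11312826, minus strand) was at 133, 69.8, 83.1, 75.6 and 97.8 CPM in wild-type and at 59.1, 49.9, 51.4, 27.7 and 46.4 CPM in *Lmx1a-/-* embryos. *Col4a2* (ENSMUSG00000031503, chr8:11312805-11449287, plus strand) was at 86.5, 50.2, 58.4, 52.5 and 69.6 CPM in wild-type and at 45.7, 32.7, 34.1, 16.3 and 37.1 CPM in mutants. For both chains the genotypes did not overlap, wild-type embryo 1 was the highest of the 10 libraries and *Lmx1a-/-* embryo 4 the lowest.

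*Col4a1* fell from 91.9 ± 25.4 to 46.9 ± 11.7 CPM (edgeR FDR = 0.0253, log2 fold change -0.97, SE 0.20), and *Col4a2* from 63.4 ± 14.9 to 33.2 ± 10.7 CPM (-0.94, SE 0.23, FDR = 0.0514). *Col4a1* passed with each of the 10 embryos left out in turn. *Col4a2* did not pass without wild-type embryo 1 (FDR = 0.128) or without *Lmx1a-/-* embryo 2 (FDR = 0.11), nor with *Xist* (FDR = 0.212) or the markers of meninges and mesenchyme (FDR = 0.1003) as a covariate. In the fit of wild-type embryo 1 against the mutants, *Col4a1* had a log2 fold change of -1.51 (FDR = 0.0712) and *Col4a2* of -1.39 (FDR = 0.207).

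The annotated first exons of the 2 genes overlap by 22 bases on opposite strands, at chr8:11312805-11312826 of GRCm38. These shared bases are shown because they are the short stretch from which both of the type IV genes that fell begin.
*Col4a1* and *Col4a2* starts, plus strand: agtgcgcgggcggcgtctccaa
*Col4a3* and *Col4a4* start 71 bases apart on chromosome 1, and *Col4a5* and *Col4a6* start 1308 bases apart on the X chromosome. *Col4a5* was at 43 ± 5.25 and 47.3 ± 6.15 CPM (log2 fold change 0.14, SE 0.11, FDR = 0.605) and *Col4a6* at 18.3 ± 4.66 and 22.3 ± 2.64 CPM (0.29, SE 0.16, FDR = 0.407). In wild-type embryo 1 these X-linked chains were at 43.7 and 19.4 CPM, inside the range of wild-type embryos 2 to 5. *Col4a4*, at 1.41 ± 0.53 and 1.39 ± 0.824 CPM, had a log2 fold change of -0.02, and *Col4a3* had at most 13 counts in a library.

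Blood vessels are a main source of type IV collagen. Of 14 endothelial markers 1 fell and none rose, but 11 of the 14 were lower in mean, with a median log2 fold change of -0.35. The 1 that fell was *Kdr*, which the paper also lists among genes expressed mainly in the CH. The summed level of the 14 was 227, 127, 157, 104 and 184 CPM in wild-type and 93.2, 94.5, 93.8, 60.6 and 123 CPM in *Lmx1a-/-* embryos. All mutants but embryo 5 thus lay below every wild-type library in the sum. The mean log2 CPM of the same list overlapped, between 1.09 and 2.74 in wild-type and between 0.9 and 2.07 in mutants. Of the genes that define endothelium, *Pecam1* was at 7.25 ± 1.82 and 8.39 ± 3.68 CPM, *Cdh5* at 19 ± 11 and 15.8 ± 4.59 CPM and *Cldn5* at 2.31 ± 1.35 and 1.8 ± 0.349 CPM, none past the threshold. None of 8 mural cell markers and none of 9 tested red blood cell markers passed, but the summed level of the red blood cell list did not overlap, at 643 to 1489 CPM in wild-type and 268 to 581 CPM in mutants. Wild-type embryo 1 was highest and *Lmx1a-/-* embryo 4 lowest for the red blood cell sum, as for both type IV chains. With the endothelial mean as a covariate, *Col4a1* had a log2 fold change of -0.79 (FDR = 0.0175) and *Col4a2* of -0.76 (FDR = 0.0438). The part of red blood cells in the result was not tested.

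Other components of basement membranes were read beside the type IV chains. Of 13 such genes 3 fell and none rose, where 2.29% of all tested genes fell. Of the 13, 10 were lower in mean, with a median log2 fold change of -0.31. The 3 that fell encode the chains of the laminin trimer of early embryonic basement membranes. The other laminin chains of the list, *Lama2*, *Lama4*, *Lama5* and *Lamb2*, did not pass. *Lamc1* had a log2 fold change of -0.55 (FDR = 0.0084), *Lamb1* of -0.80 (FDR = 0.0136) and *Lama1* of -0.63 (FDR = 0.0329), and *Lama1* went from 41.8 ± 7.46 to 27.1 ± 4.08 CPM. *Nid1* and *Nid2*, which link laminin to type IV collagen, did not pass (log2 fold changes -0.31 and 0.16), nor did the proteoglycans *Hspg2* (-0.43, FDR = 0.155) and *Agrn* (0.20, FDR = 0.229).

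Among FACIT collagens, none of 9 tested genes fell and 1 rose, with 5 of 9 lower in mean and a median log2 fold change of -0.07. At an unadjusted p under 0.05, *Col19a1* was the 1 lower gene, and DESeq2's Wald test also called it. *Col9a3* (ENSMUSG00000027570, chr2:180597790-180622189), a chain of type IX collagen, which coats type II fibrils in cartilage, was at 1.94, 2.89, 3.03, 3.01 and 3.07 CPM in wild-type embryos. In *Lmx1a-/-* embryos it was at 5.55, 5.38, 6.3, 5.15 and 8.94 CPM, so every mutant library was above every wild-type library and wild-type embryo 1 was the lowest. *Col9a3* rose from 2.79 ± 0.477 to 6.27 ± 1.56 CPM (edgeR FDR = 0.016, log2 fold change 1.17, SE 0.22), on between 52 and 257 counts per library. Its log2 fold change was 1.68 in the fit of wild-type embryo 1 against the mutants, with an FDR of 0.250, and 1.77 with *Xist* as a covariate, with an FDR of 0.176. *Tcfl5*, on the opposite strand, overlaps the locus and had 136 counts over all libraries against 1254 for *Col9a3*.

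The other type IX chains were also higher in mean and did not pass. *Col9a1* was at 0.635, 0.135, 0.676, 0.934 and 1.18 CPM in wild-type and at 0.532, 1.96, 0.954, 1.86 and 3.58 CPM in mutants (log2 fold change 1.31, SE 0.56, FDR = 0.263). *Col9a2* was at 2.54, 3.47, 3.09, 2.18 and 3.77 CPM and at 7.61, 3.75, 6.03, 2.58 and 4.21 CPM (0.68, SE 0.29, FDR = 0.264). For both, the genotypes overlapped. Against wild-type embryo 1 alone, the log2 fold changes were 1.47 (FDR = 0.692) for *Col9a1* and 0.93 (FDR = 0.672) for *Col9a2*. *Col22a1*, a FACIT collagen of tissue junctions, was at 1.4 ± 0.646 and 2.45 ± 1.06 CPM (0.82, FDR = 0.346).

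*Col12a1*, the most abundant FACIT gene in CPM and in CPM per kb, varied more within genotypes than between them. It was at 34.1, 47.9, 167, 127 and 38.7 CPM in wild-type and at 80.9, 17.2, 69.6, 8.86 and 57.6 CPM in *Lmx1a-/-* embryos (log2 fold change -0.82, SE 0.57, FDR = 0.520). The sign turned in the fit of wild-type embryo 1 against the mutants (log2 fold change 0.46, FDR = 0.916), with *Xist* as a covariate (0.65) and with the surface epithelium list described below as a covariate (0.48). *Col14a1*, another FACIT collagen of mesenchyme, was at 8.99 ± 6.94 and 5.39 ± 2.13 CPM (-0.73, FDR = 0.544), and *Col16a1* at 5.5 ± 0.816 and 4.29 ± 1.32 CPM (-0.36, FDR = 0.473). *Col19a1* had the most negative log2 fold change of the 41 (-3.16, SE 1.08, FDR = 0.161), which rested on 2.93 and 4.93 CPM in wild-type embryos 2 and 4, with the other 8 libraries at 0.698 CPM or less. *Col20a1*, whose locus holds another gene on the same strand, reached at most 1.43 CPM in a library.

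Among the 16 other collagens tested, none passed in either direction, though all 16 were lower in mean, with log2 fold changes between -1.52 and -0.17 (median -0.37). At an unadjusted p under 0.05, 3 were lower, all of them chains of type VI, the beaded filaments of mesenchyme, of which DESeq2's Wald test called *Col6a3*. *Col6a3* was at 23.1, 30.9, 49.9, 84.3 and 25.8 CPM in wild-type and at 23.6, 14.6, 25.6, 18.8 and 18.7 CPM in *Lmx1a-/-* embryos (edgeR FDR = 0.102, log2 fold change -1.07, SE 0.31), just outside the threshold. Wild-type embryo 1 lay within the mutant range, and the log2 fold change was -0.19 in the fit of that embryo against the mutants. *Col6a1* went from 19.7 ± 7.56 to 8.23 ± 5.43 CPM (-1.25, SE 0.45, FDR = 0.177) and *Col6a2* from 31.7 ± 11.6 to 15 ± 8.69 CPM (-1.07, SE 0.36, FDR = 0.153), with log2 fold changes of -1.33 (FDR = 0.619) and -1.26 (FDR = 0.514) against wild-type embryo 1 alone.

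*Col18a1*, a basement membrane collagen whose end fragment is endostatin, was the most abundant of the other collagens. It was at 71.9, 71.6, 53, 79.8 and 58.4 CPM in wild-type and at 57.7, 47.7, 62.5, 65.8 and 63.8 CPM in mutants, which overlapped (log2 fold change -0.17, SE 0.12, FDR = 0.538; -0.28 against wild-type embryo 1 alone). *Col15a1*, its close relative, was at 3.14 ± 1.49 and 2.77 ± 1.12 CPM (-0.19). *Col26a1* was at 36.7 ± 16.3 and 30.1 ± 9.55 CPM (-0.28), and *Col8a1*, a network-forming collagen of vessels and the eye, at 16.6 ± 19.3 and 7.37 ± 5.15 CPM (-1.17, FDR = 0.417), with 50.4 CPM in wild-type embryo 3.

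*Col7a1*, the anchoring fibril collagen of skin, and *Col17a1*, a transmembrane collagen of hemidesmosomes, followed a single library. *Col17a1* was at 3.02, 8.3, 6.65, 39 and 1.33 CPM in wild-type and at 6.55, 0.489, 10.2, 2.27 and 0.452 CPM in *Lmx1a-/-* embryos (log2 fold change -1.52, SE 0.91, FDR = 0.438). *Col7a1* was at 1.9, 6.9, 5.12, 21.8 and 1.77 CPM and at 3.92, 0.326, 6.92, 2.08 and 0.626 CPM (-1.41, SE 0.78, FDR = 0.397). Both were highest in wild-type embryo 4, and among mutants in embryo 3.

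Transcripts of surface epithelium moved with these genes. In a list of 10 such genes, among them the keratins *Krt5* and *Krt14*, *Trp63* and *Epcam*, the summed level was 1052 CPM in wild-type embryo 4, between 49.5 and 144 CPM in the other wild-type libraries and between 14.7 and 123 CPM in *Lmx1a-/-* libraries. All 10 were lower in mean in *Lmx1a-/-* and 1 fell, *Perp*. This list was chosen after the values of *Col7a1* and *Col17a1* were seen. With its mean as a covariate, *Col11a1* had a log2 fold change of -0.92 (FDR = 0.0131), *Col4a1* of -0.93 (FDR = 0.247), *Col4a2* of -0.84 (FDR = 0.436) and *Col9a3* of 1.27 (FDR = 0.129), while *Col6a3* had -0.20 (FDR = 0.938).

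**Figure D4:**
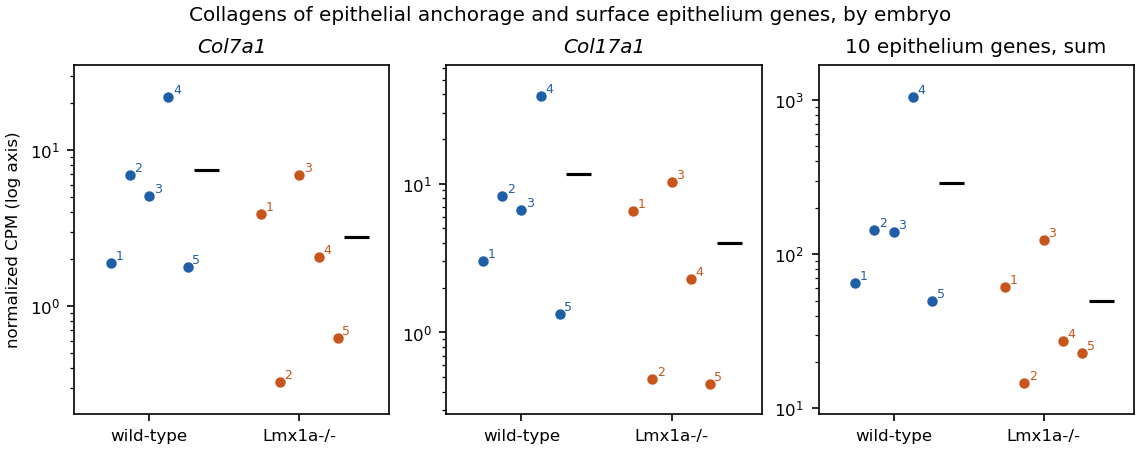
Normalized CPM on log axes of *Col7a1*, *Col17a1* and the sum of 10 surface epithelium genes, with 1 point per embryo, labelled by embryo number, and a dash for the mean of each genotype (blue, wild-type; orange, *Lmx1a-/-*). Wild-type embryo 4 is the highest point of each panel, at 21.8, 39 and 1052 CPM.

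Chains that share a trimer were compared within each library, since a ratio of 2 genes' counts does not depend on how libraries are scaled. Of 14 such pairs, the ratio of *Col11a1* to *Col2a1* had log2 values of -2.0, -1.94, -1.73, -2.39 and -2.43 in wild-type and -3.44, -3.42, -2.99, -2.71 and -2.95 in *Lmx1a-/-* embryos. All mutants lay below all wild-type embryos, and the mean difference was -1.0 (exact two-sided permutation p = 0.00794, the smallest that 252 splits of 10 embryos allow, 0.0556 adjusted over the 14 pairs). *Col11a1* alone also did not overlap between genotypes, so this ratio is not evidence apart from its fall. The 14 pairs were chosen with earlier results of these data known. The ratio of *Col5a1* to *Col5a2*, partners in type V collagen, was between -0.80 and -0.48 in wild-type and between -1.46 and -0.96 in mutants. In wild-type embryo 1 it was -0.71. The difference was -0.58, with the same exact permutation p of 0.00794 and adjusted p of 0.0556. The ratio of *Col11a1* to *Col5a2*, which occur together in mixed type V and XI trimers, differed by -0.84 (exact p = 0.0159, adjusted 0.0741), with wild-type embryo 4 inside the mutant range. The locus of *Col5a2* holds another gene on the same strand, *Gm38211*, with 6902 counts over all libraries against 27339 for *Col5a2*. Its bearing on the ratios with *Col5a2* was not tested. The permutation tests took all 10 embryos, so they do not separate genotype from sex.

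For the other 11 pairs the exact permutation p was 0.135 or more. *Col4a1* to *Col4a2* had a log2 ratio of 0.52 ± 0.059 in wild-type and 0.53 ± 0.18 in mutants, a difference of 0.0089 (exact p = 0.968). The type IX ratios differed by 0.54 for *Col9a3* to *Col9a2* (exact p = 0.151), by -0.14 for *Col9a3* to *Col9a1* (exact p = 0.849) and by -0.68 for *Col9a2* to *Col9a1* (exact p = 0.460). *Col11a1* to *Col11a2* differed by -0.29 (exact p = 0.508).

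**Figure D5:**
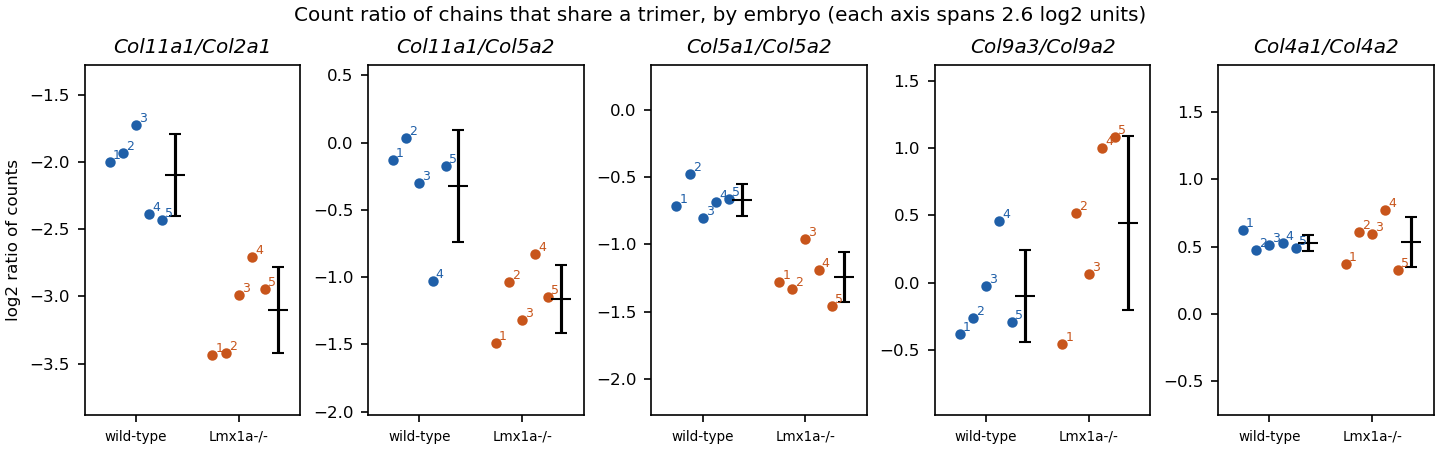
Log2 ratio of the counts of 5 pairs of chains that share a trimer, with 1 point per embryo, labelled by embryo number, and the mean ± SD beside each genotype (blue, wild-type; orange, *Lmx1a-/-*; each axis spans the same number of log2 units). *Col11a1* to *Col2a1* and *Col5a1* to *Col5a2* do not overlap between genotypes, and *Col4a1* to *Col4a2* differs by 0.0089.

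Genes that act on collagens were read from the fit of all 10 libraries, in which 2.29% of all tested genes fell and 1.72% rose. Of 23 genes for modification, folding and secretion of procollagen in the endoplasmic reticulum, none fell and 1 rose, *Tmem38b*, a cation channel of that compartment (11.6 ± 1.71 to 16.5 ± 1.74 CPM, log2 fold change 0.51, FDR = 0.077). *Serpinh1*, a chaperone of procollagen, did not pass (119 ± 8.1 against 97.1 ± 17.2 CPM, -0.30, FDR = 0.189). Of 14 genes for propeptide cleavage and crosslinking 1 fell, *Adamts3*, a procollagen N-propeptidase, which was between 6.85 and 26.3 CPM in wild-type and between 2.13 and 5.43 CPM in mutants (log2 fold change -1.67, SE 0.35, FDR = 0.0274).

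Of 10 tested collagen receptors 2 fell and none rose. *Ddr2*, a receptor tyrosine kinase that binds fibrillar collagens, was between 39.3 and 71.9 CPM in wild-type and between 14.9 and 28 CPM in *Lmx1a-/-* libraries and fell from 57.2 ± 12.7 to 22.6 ± 4.9 CPM (log2 fold change -1.33, SE 0.18, FDR = 0.00202). *Adgrg1*, the adhesion receptor for type III collagen at the pial surface, fell from 198 ± 25.7 to 148 ± 16.8 CPM (-0.42, SE 0.10, FDR = 0.0548). *Ddr1* (-0.27, FDR = 0.115) and the integrin subunit *Itgb1* (-0.20, FDR = 0.124) did not pass.

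The region upstream of *Col11a1*, the collagen with the smallest p, is shown because it is the start region of the gene that fell with the least spread. The 250 bases before its start (RefSeq, GRCm38.p6, chr3:114030290-114030539, plus strand) hold no annotated exon. Capitals mark ATTGG, the reverse complement of the CCAAT box, which lies 79 bases upstream of the start.
*Col11a1* upstream: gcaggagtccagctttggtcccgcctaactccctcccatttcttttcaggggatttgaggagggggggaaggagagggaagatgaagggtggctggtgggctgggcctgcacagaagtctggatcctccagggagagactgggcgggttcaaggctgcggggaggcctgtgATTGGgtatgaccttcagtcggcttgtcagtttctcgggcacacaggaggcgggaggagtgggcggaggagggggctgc
Start regions of 300 bases (250 before and 50 after the start) were found for 35 of the 44 genes, in 38 windows, and 4 motifs were searched on both strands, none of which contains another. CCAAT was present in 34.2% of collagen windows and in 37.4% of the 32851 windows of all genes, *Col11a1*, *Col4a1* and *Col4a2* among those that held it. GGGCGG, the GC box, was present in 60.5% against 35.7%, and these 3 genes held it too. TAATTA, a core bound by many homeodomain proteins, was present in 5.26% against 5.29%, in *Col10a1* and *Col11a2*, and TATAAA in 13.2% against 13.6%. *Col9a3* was not among the 35.

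The other cells a captured CH could hold, and the CH itself, were checked with marker lists. Of 10 CH markers 4 fell and 1 rose, and 7 of the 10 were lower in mean, with a median log2 fold change of -0.43. The 1 that rose was *Lmx1a* itself (log2 fold change 0.68, edgeR FDR = 0.0658), and *Wnt8b* was at 851 ± 198 and 920 ± 71.4 CPM. No gene of any list was at 0 in every library. Of 11 tested markers of choroid plexus epithelium 3 fell, among them *Ttr* (78.3 ± 66.9 to 7.23 ± 5.94 CPM). Of the 11, 10 were lower in mean, with a median log2 fold change of -1.15. The summed level of the list was between 154 and 232 CPM in mutants and 133 CPM in wild-type embryo 3. In the other wild-type libraries it was between 299 and 489 CPM, above every mutant. Of 7 tested CR cell markers 3 fell and 1 rose, and of 9 microglial markers none passed. Of 6 markers of cortical neuroepithelium 2 rose, and all 6 were higher in mean, with a median log2 fold change of 0.54. The summed level of these 6 was between 334 and 730 CPM in wild-type and between 639 and 887 CPM in mutants, which overlapped. With the choroid plexus mean as a covariate no collagen gene passed, and over all genes 11 fell and 10 rose. The 4 collagens kept their direction in that fit, with log2 fold changes of -0.76 for *Col11a1*, -0.77 for *Col4a1*, -0.68 for *Col4a2* and 1.19 for *Col9a3*.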

How the data were processed

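Laser-captured CH of e13.5 embryos (5 per genotype) was sequenced, 1 pool of sections and 1 library per embryo. After trimming with Trimmomatic, the authors mapped read pairs to GRCm38 by STAR 2.7.1a and counted reads per Ensembl gene with HTSeq 0.11.2. The deposited values are these raw counts. The strand setting of HTSeq is not given in the sources used here, so reads of genes that overlap on opposite strands, such as *Col4a1* with *Col4a2*, *Col18a1* with *Slc19a1* and *Col10a1* with *Nt5dc1*, cannot be told apart.

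Of 52508 rows, 281 repeated another row exactly and were dropped. Genes that reached 10 counts in 3 or more libraries were scaled by TMM and compared with edgeR's quasi-likelihood test (R 4.3.3, edgeR 4.0.16, legacy dispersion method), with p values adjusted by the Benjamini-Hochberg method over all genes tested and an FDR under 0.1 as the threshold. SE values were obtained from the log2 fold change and the F statistic of each gene (absolute fold change over root F). Ratios of chains used counts plus 0.5 and an exact two-sided permutation test. Levels per kb used the merged exons of GENCODE M21, which also gave positions, counted from 1.

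The members, classes, lists, pairs and motifs were chosen with earlier results of these data known. Values in every embryo are given for members past the threshold and for the member with the smallest p and the one with the highest mean level of each class. For the partner lists, the genes past the threshold are named, up to 3 per list, and up to 2 more where none passed. Other genes were named after their values were seen. Alternatives were the Wald test of DESeq2 1.42.0, edgeR's likelihood ratio test, other scaling and filters, a block for the embryo number, *Xist* or a marker list as covariate, mitochondrial genes left out, an FDR under 0.05 and each embryo left out. Chosen after seeing the data were the surface epithelium covariate, the newer dispersion method (legacy = FALSE) and the fit without the wild-type embryos that had *Xist*.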

Additional observations from a re-analysis of the deposited data

Results flagged for a closer look

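Among 82 groups of 5 embryos, for 41 genes and 2 genotypes, 1 embryo stood apart from the other 4 in 9 groups. Chance gives about 1 in 20 for independent values with a normal distribution. CPM need not be normal and the groups share libraries, so an excess over chance is not shown. *Col9a3* was at 1.94 CPM in wild-type embryo 1, below 2.89 to 3.07 CPM in the other wild-type embryos, and this embryo is also the wild-type one without *Xist*. *Col2a1* was at 420 CPM in wild-type embryo 5, above 286 to 323 CPM in the others. *Col7a1* at 21.8 CPM and *Col17a1* at 39 CPM stood apart in wild-type embryo 4, where the next values were 6.9 and 8.3 CPM. *Col8a1* was at 50.4 CPM in wild-type embryo 3, with 15 CPM the next value.

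In *Lmx1a-/-* embryo 1, *Col19a1* was at 0.698 CPM, *Col13a1* at 0.765 CPM and *Col4a3* at 0.432 CPM, with next values of 0.163, 0.204 and 0.0554 CPM, all on few counts. *Col8a2* was at 4.17 CPM in *Lmx1a-/-* embryo 5, with 1.81 CPM the next value.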

How the results depend on the processing

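In the report 3 collagen genes were lower and 1 higher. The lower count was 6 by DESeq2's Wald test and 8 by the likelihood ratio test. It was 5 each under a filter of 50 counts in 5 or more libraries, with the endothelium covariate, with legacy = FALSE and with the replicate block. It was 1 each with *Xist* as a covariate (*Col4a1*), with the surface epithelium covariate (*Col11a1*) and in embryos with Y-linked transcripts only (*Col4a1*), and 0 with the choroid plexus covariate. The higher count was 0 under these same 4 settings. With an embryo left out, the lower count was between 2 and 6 (5 without *Lmx1a-/-* embryo 1 and 6 without *Lmx1a-/-* embryo 3) and the higher count between 1 and 2 (2 without wild-type embryo 5). Under the other scalings, no filter, mitochondrial genes left out, the meninges covariate and an FDR under 0.05, the lower count was between 2 and 4 and the higher count stayed at 1. Over all genes, 497 fell and 373 rose in the report, 353 and 248 with the block, 953 and 741 by DESeq2, 805 and 555 by the likelihood ratio test, 663 and 519 with legacy = FALSE, 332 and 238 with the meninges covariate, 98 and 44 with the surface epithelium covariate, 86 and 44 in embryos with Y-linked transcripts and 26 and 1 with *Xist*.

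The embryo numbers do not pair the libraries (correlation of deviations between -0.0985 and 0.0133). The block added *Col6a1* and *Col6a2* to the 3 lower genes, and its smallest exact p for a ratio was 0.0625.

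Some results changed sign. *Col12a1*, at -0.82 in the report, was 0.65 with *Xist*, 0.48 with the surface epithelium covariate and 0.46 in embryos with Y-linked transcripts only, and *Col18a1*, at -0.17, was 0.13 with the choroid plexus covariate. The difference of *Col9a3* to *Col9a1* was 0.091 with 5 counts added, and between -0.46 and 0.37 with an embryo left out. That of *Col4a1* to *Col4a2* was between -0.051 and 0.061 with an embryo left out. The cause was not tested. The tested genes with a mean under 1 CPM (*Col4a3*, *Col13a1*, *Col19a1* and *Col20a1*) had log2 fold changes with an SE between 0.62 and 1.09. *Col17a1* and *Col7a1*, at higher levels, had an SE of 0.91 and 0.78. The part of depth in these SEs was not tested.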
